A study of Homo sapiens with 10 samples.

Results

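Thioredoxins and peroxiredoxins make up a thiol relay that removes hydrogen peroxide. The selenoprotein thioredoxin reductase passes electrons from NADPH to thioredoxin, thioredoxin reduces peroxiredoxins, and peroxiredoxins reduce peroxides. Sulfiredoxin returns overoxidised peroxiredoxin to the cycle. The cytosol and the mitochondrion each hold a reductase, a thioredoxin and peroxiredoxins of their own, encoded by separate genes. In keratinocytes, as in many cells, several cytosolic members are known targets of NRF2, a transcription factor that binds antioxidant response elements.

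The 10 genes described here were taken by name from 22003 features in the count table. The cytosolic members were TXN (thioredoxin), TXNRD1 (thioredoxin reductase), SRXN1 (sulfiredoxin) and the peroxiredoxins PRDX1, PRDX2 and PRDX6. The mitochondrial members were TXN2 (thioredoxin), TXNRD2 (thioredoxin reductase) and PRDX3 (peroxiredoxin), and PRDX5 is a peroxiredoxin found in several compartments. All 10 members passed the filter on low counts and were among the 14799 features tested.

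RNA was sequenced from HaCaT, an immortalised line of human keratinocytes that arose spontaneously in culture and is labelled as coming from mucosa. Cells received LBP, a polysaccharide-glycoprotein preparation of Lycium barbarum, or vehicle for 24 h, then 12 Gy of radiation or none, and RNA was taken at 3 h. There were 2 libraries each of the vehicle and LBP groups and 3 each of the irradiated vehicle and irradiated LBP groups. The labels give no LBP dose and do not say whether the libraries of a group were grown separately, so the p-values rest on a spread between libraries that may be technical.

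Depth ran from 31830506 to 62986831 counts per library, and the member with the fewest counts, TXNRD2, had 944 to 2417 per library. All 6 keratinocyte markers, led by KRT14, were at a mean of at least 1 FPKM, and so were all 5 markers of mucosal and simple epithelium. Summed levels of the latter ran from 2157 to 2817 FPKM in libraries with LBP and from 2585 to 2992 FPKM in libraries with vehicle. KRT8, the largest of them, averaged 1771 FPKM in vehicle and 1523 in LBP, and 1624 in irradiated vehicle and 1386 in irradiated LBP. KRT18 and EPCAM also had lower means with LBP, whereas KRT4 and KRT13 had higher ones. KRT13 averaged 35.9 FPKM in vehicle and 52.0 in LBP, and 33.6 in irradiated vehicle and 41.3 in irradiated LBP. The part of these markers in the results was not tested. Fibroblast markers summed to 1.02 to 1.49 FPKM. Melanocyte markers, led by MITF, summed to 1.4 to 1.5 FPKM in libraries with LBP and 1.6 to 1.9 FPKM in libraries with vehicle. Leukocyte and endothelial markers each summed to under 1 FPKM in every library, with none of their 9 genes at a mean of 1 FPKM.

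Levels between genes are compared here as FPKM, the deposited values per length of gene. In vehicle cells the order of mean levels was PRDX1 (554 FPKM), TXN (489), PRDX2 (205), PRDX5 (201), PRDX6 (191.5), PRDX3 (99.6), SRXN1 (72.5), TXNRD1 (54.9), TXN2 (42.6) and TXNRD2 (16.1). Within this order the libraries of PRDX2 and PRDX5 overlapped, and no other neighbours did. In LBP cells TXN stood at 671 FPKM and PRDX1 at 655 FPKM, with overlapping libraries. SRXN1, at 133 FPKM, and TXNRD1, at 121 FPKM, then stood above PRDX3, at 96.6 FPKM, whereas both stood below it in vehicle cells. Irradiated cells gave the same arrangement of these 3 genes. Without LBP, PRDX3 was at 98.8 FPKM, SRXN1 at 78.3 and TXNRD1 at 58.0. With LBP, SRXN1 was at 137 FPKM, TXNRD1 at 117 and PRDX3 at 89.3.

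**Figure D1:**
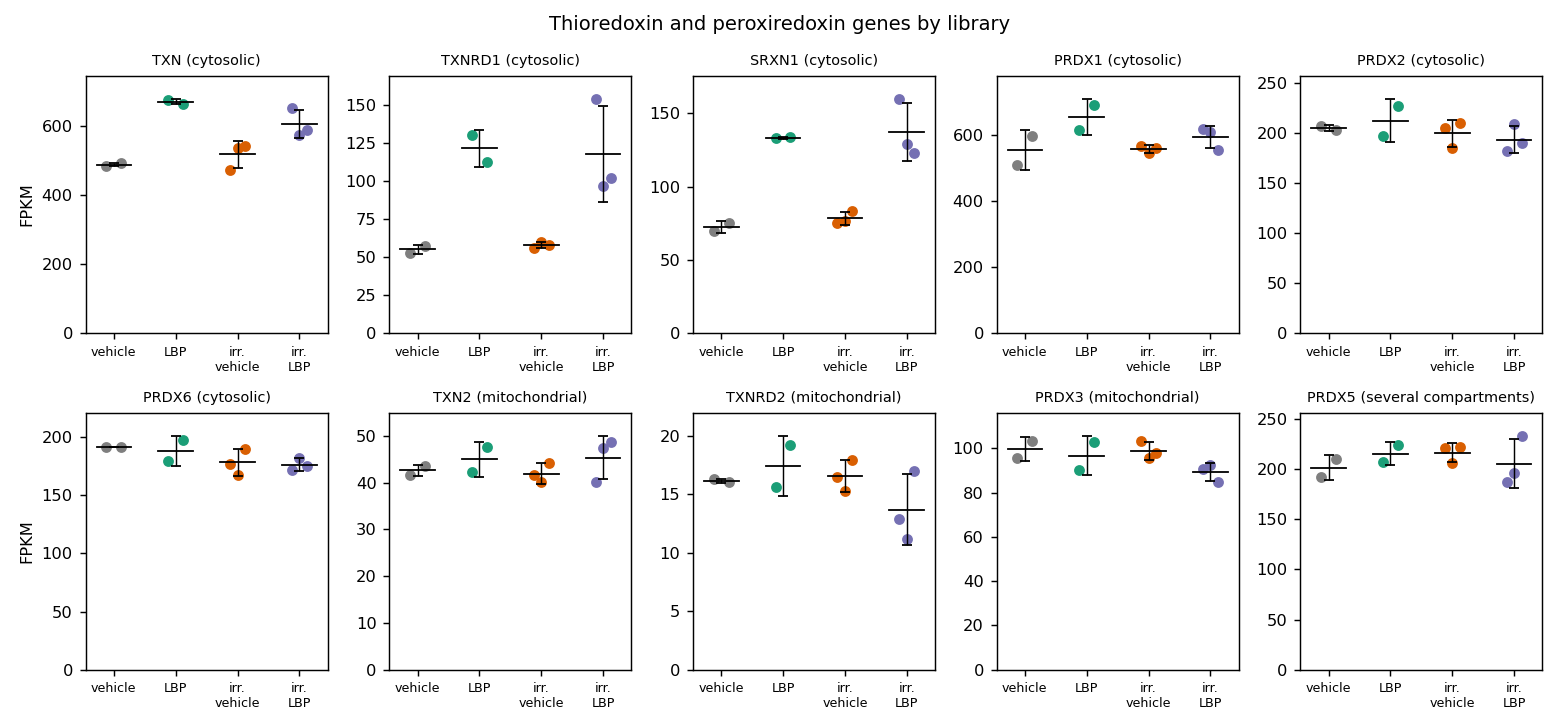
Level of each member in FPKM (vertical axes, each from 0) in every library of the 4 groups, with horizontal bars at the group mean and error bars of 1 SD (n = 2 or 3; irr., irradiated). TXNRD1, SRXN1 and TXN sit higher in both groups with LBP than in both groups with vehicle, whereas the groups of PRDX2 overlap.

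Pretreatment with LBP was compared with vehicle in irradiated and in non-irradiated cells. The groups compared share no libraries, but both comparisons take their spread from 1 fit over all 10 libraries, so their p-values are not separate. TXNRD1 and SRXN1 were about 2-fold higher with LBP in both, TXN was called higher in non-irradiated cells alone, and no member was called lower in either. In irradiated cells 2 of the 10 members passed an adjusted p of 0.05 in the higher direction, where 2.79% of all features did. In non-irradiated cells 3 of the 10 passed in the higher direction, where 0.541% of all features did. The lower direction held 0 of 10 members in both comparisons, against 1.57% and 0.264% of all features. In CPM, a depth-scaled count, the libraries with LBP all lay above those with vehicle for 4 members in irradiated cells (13.9% of all features) and for 6 in non-irradiated cells (23.2%). They all lay below for 1 member (13.6% of all features) and for 0 (22.3%). All members that passed the test were cytosolic, 2 of 6 in irradiated and 3 of 6 in non-irradiated cells. The median log2 fold change of the cytosolic members was 0.18 in irradiated and 0.44 in non-irradiated cells, that of the mitochondrial members −0.09 and 0.10, and that of all features 0.01 in each. None of the 3 mitochondrial members passed in either comparison, and DESeq2 and limma on FPKM called none of them. None had an unadjusted p under 0.05 in edgeR, where 21.7% of all features did in irradiated and 13.5% in non-irradiated cells. Of the 14799 features, DESeq2 called 1236 and 381, and limma on log2(FPKM + 1) called 313 and 62. With 3 genes, 0 is close to these shares and does not set the mitochondrial members apart from features in general.

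TXNRD1, at chr12:104215779-104350305 on the plus strand (GRCh38, GENCODE v29), encodes the cytosolic reductase that supplies the relay with electrons. Its levels were 52.7 and 57.0 FPKM in vehicle, 130 and 113 in LBP, 55.8, 60.0 and 58.1 in irradiated vehicle, and 154, 96.5 and 102 in irradiated LBP. All 5 libraries with LBP lay above all 5 with vehicle, and the first irradiated LBP library was the highest of the 10. On the count scale the log2 fold change with LBP was 1.04 ± 0.15 (SE, 95% interval 0.72 to 1.36, adjusted p = 0.00293) in irradiated cells. In non-irradiated cells it was 1.20 ± 0.18 (95% interval 0.81 to 1.59, adjusted p = 0.00809). Without the first irradiated LBP library the value in irradiated cells was 0.79 (adjusted p = 0.000453). The call in non-irradiated cells was lost without either vehicle library (adjusted p = 0.143 and 0.0769) or without the first LBP library (0.0905), and in limma on FPKM without a filter (0.104). In bulk RNA, more RNA in every cell and more cells with a high level cannot be told apart.

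SRXN1, at chr20:646615-653370 on the minus strand, encodes the enzyme that repairs overoxidised peroxiredoxin. It measured 69.6 and 75.4 FPKM in vehicle and 133 and 134 in LBP. After irradiation it measured 75.1, 76.4 and 83.5 FPKM with vehicle and 160, 129 and 123 with LBP. The groups with and without LBP did not overlap, and the first irradiated LBP library was again the highest. The log2 fold change was 0.82 ± 0.10 (95% interval 0.61 to 1.04, adjusted p = 0.000951) in irradiated cells and 0.94 ± 0.12 (95% interval 0.68 to 1.21, adjusted p = 0.00248) in non-irradiated cells. The second of these calls was lost without the first vehicle library (adjusted p = 0.0744). Another annotated gene, AL121758.1, covers 6745 bases of SRXN1 on the same strand and had 31 counts over all libraries, 0.023% of those of SRXN1.

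TXN, at chr9:110243811-110256640 on the minus strand, encodes cytosolic thioredoxin, which hands electrons to peroxiredoxins and other proteins. Its levels were 485 and 493 FPKM in vehicle and 676 and 665 in LBP. In irradiated cells they were 474, 538 and 543 FPKM with vehicle and 652, 576 and 590 with LBP. The groups with LBP lay above those with vehicle in both comparisons, with a wider gap in non-irradiated cells. There the log2 fold change was 0.52 ± 0.10 (95% interval 0.30 to 0.73, adjusted p = 0.0313), and it missed the threshold in 8 of 21 alternative analyses. These included leaving out any 1 of the 4 non-irradiated libraries (adjusted p = 0.151 to 0.312) or the second irradiated vehicle library (0.0503), and limma on FPKM (0.102 to 0.163). In irradiated cells it was 0.24 ± 0.08 (95% interval 0.06 to 0.41, adjusted p = 0.113), which did not pass, although DESeq2 called it (adjusted p = 0.0453). The difference between these 2 effects was −0.28 ± 0.13 on the log2 scale (irradiated minus non-irradiated, adjusted p = 0.604), so TXN was not shown to respond differently in the 2 settings. GENCODE v29 annotates 7 pseudogenes of TXN, 1 of PRDX1, 4 of PRDX2 and 4 of PRDX3, none of which has a row of its own in the count table. How reads shared with such copies were assigned is not given in the sources used here.

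**Figure D2:**
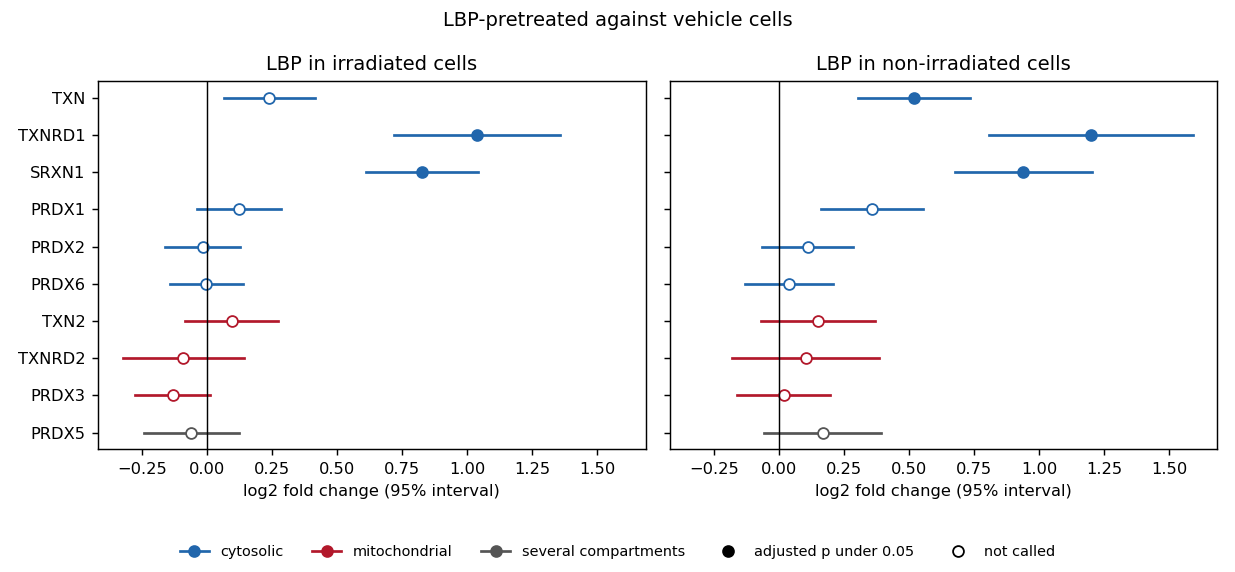
Log2 fold change of each member with LBP against vehicle (horizontal axes, with 95% intervals) in irradiated cells (n = 3 against 3) and in non-irradiated cells (n = 2 against 2). Filled symbols mark adjusted p under 0.05, which were TXNRD1 and SRXN1 in both panels and TXN in non-irradiated cells alone.

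Promoter sequence from RefSeq (GRCh38.p14) was matched by symbol for 7 of the 10 members, in 11 windows of 250 bases before an annotated start. The windows are shown because the antioxidant response element, the site that NRF2 binds, has the core TGACNNNGC, and this core was searched on both strands. It was found in both windows of TXNRD1 and in none of the other 9. The stretches below, from the first window of each gene, run 5′ to 3′ on the gene's strand and carry the core in capitals where it occurs. They leave out any part inside an annotated exon, although the search covered the whole windows. That of TXNRD1 holds its whole window of 250 bases, up to the base before the start. Those of SRXN1, TXN and TXNRD2 hold only the first 80, 117 and 76 bases of the window and end short of that start. They lie at chr12:104215529-104215778 (plus strand) for TXNRD1, chr20:653371-653450 (minus) for SRXN1, chr9:110256641-110256757 (minus) for TXN and chr22:19941993-19942068 (minus) for TXNRD2.
TXNRD1: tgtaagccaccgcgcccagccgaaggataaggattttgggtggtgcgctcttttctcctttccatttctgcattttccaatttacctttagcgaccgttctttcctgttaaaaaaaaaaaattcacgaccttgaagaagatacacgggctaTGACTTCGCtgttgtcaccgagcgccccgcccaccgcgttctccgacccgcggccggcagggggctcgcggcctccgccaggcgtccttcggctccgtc
SRXN1: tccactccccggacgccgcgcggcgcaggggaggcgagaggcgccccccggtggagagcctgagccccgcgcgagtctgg
TXN: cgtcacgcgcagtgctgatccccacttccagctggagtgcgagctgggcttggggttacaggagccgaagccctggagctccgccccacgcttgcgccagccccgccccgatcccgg
TXNRD2: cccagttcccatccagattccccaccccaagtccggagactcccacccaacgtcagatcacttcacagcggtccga

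In the TXNRD1 stretch the core TGACTTCGC lies 99 to 91 bases before the start on the strand of the gene. The second TXNRD1 window, before a start further into the gene, reads GCTTTGTCA 102 to 94 bases before that start, which is the core on the other strand. A core was present in 1 of the 7 members with a window, or 14.3%, and in 15.9% of the 10709 tested genes with a window. The share among members was therefore close to that of tested genes in general. SRXN1 and TXN, which were also called higher with LBP, held no such core in these windows, and TXNRD2, which was not called, held none either.

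None of the cytosolic peroxiredoxins was called with LBP in irradiated or in non-irradiated cells. PRDX1, an abundant peroxidase that reduces hydrogen peroxide with electrons from thioredoxin, measured 511 and 597 FPKM in vehicle and 616 and 693 in LBP. After irradiation its levels were 567, 545 and 561 FPKM with vehicle and 619, 609 and 556 with LBP. The groups did not overlap in non-irradiated cells, while in irradiated cells 1 LBP library lay inside the range of the vehicle libraries. In CPM the groups did not overlap there either, at 752, 686 and 670 CPM with LBP against 655, 629 and 652 with vehicle. The log2 fold change of PRDX1 was 0.36 ± 0.09 (95% interval 0.16 to 0.55, adjusted p = 0.109) in non-irradiated and 0.12 ± 0.07 (95% interval −0.04 to 0.28, adjusted p = 0.359) in irradiated cells. DESeq2 called the first (adjusted p = 0.00904). MMACHC, on the opposite strand over 2347 bases of PRDX1, had 1.93% as many counts, and the strand setting of the counting is not given in the sources used here.

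PRDX2, a close relative of PRDX1, measured 207 and 203 FPKM in vehicle, 197 and 227 in LBP, 205, 184 and 210.0 in irradiated vehicle, and 182, 209 and 190 in irradiated LBP. These ranges overlapped in both comparisons. Its log2 fold change was −0.02 ± 0.07 (95% interval −0.16 to 0.13) in irradiated cells and 0.11 ± 0.08 (95% interval −0.07 to 0.29) in non-irradiated cells. HOOK2 is annotated on the same strand over all 5040 bases of PRDX2 and had 14.6% as many counts. Reads could be split between them, so the values of PRDX2 are uncertain. The count of HOOK2 does not show how many reads of PRDX2 were affected.

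PRDX6, which carries a single catalytic cysteine and does not depend on thioredoxin in the way the other peroxiredoxins do, measured 192 and 191 FPKM in vehicle and 179 and 197 in LBP. In irradiated cells it measured 177, 167 and 190.2 FPKM with vehicle and 172, 182 and 175 with LBP, and the groups overlapped in both comparisons. Its log2 fold change was −0.00 ± 0.06 (95% interval −0.14 to 0.14) in irradiated and 0.04 ± 0.08 (95% interval −0.13 to 0.21) in non-irradiated cells. The intervals of PRDX2 and PRDX6 in irradiated cells exclude a change of the size measured for TXNRD1 or SRXN1.

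PRDX5, a peroxiredoxin of mitochondria, peroxisomes and cytosol, measured 192 and 210.0 FPKM in vehicle and 207 and 223 in LBP. In irradiated cells its levels were 221, 206 and 222 FPKM with vehicle and 187, 196 and 233 with LBP, so the third irradiated LBP library stood above the other two and above all irradiated vehicle libraries. The log2 fold changes were −0.06 ± 0.08 (adjusted p = 0.718) and 0.17 ± 0.10 (adjusted p = 0.511) in irradiated and non-irradiated cells.

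None of the mitochondrial members was called with LBP in irradiated or in non-irradiated cells. TXN2, the mitochondrial thioredoxin, measured 41.8 and 43.5 FPKM in vehicle, 42.3 and 47.7 in LBP, 41.6, 40.1 and 44.3 in irradiated vehicle, and 40.1, 47.3 and 48.7 in irradiated LBP. PRDX3, the peroxidase that mitochondrial thioredoxin reduces, measured 95.8 and 103 FPKM in vehicle and 90.3 and 103 in LBP. After irradiation PRDX3 was at 103, 95.5 and 97.6 FPKM with vehicle and at 90.7, 92.4 and 84.7 with LBP, so the irradiated LBP libraries were all lower. That difference was −0.13 ± 0.07 on the log2 scale (95% interval −0.28 to 0.01, adjusted p = 0.267) and did not pass. In non-irradiated cells the log2 fold change of PRDX3 was 0.02 ± 0.08. That of TXN2 was 0.09 ± 0.08 in irradiated and 0.15 ± 0.10 in non-irradiated cells, with adjusted p = 0.544 in both.

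TXNRD2, the mitochondrial reductase and the least abundant member, measured 16.3 and 16.0 FPKM in vehicle, 15.6 and 19.2 in LBP, 16.5, 15.2 and 17.9 in irradiated vehicle, and 12.8, 11.2 and 17.0 in irradiated LBP. The first and the second irradiated LBP libraries were the lowest of the 10, and the third lay inside the range of the irradiated vehicle libraries. On counts the difference was smaller, at 34.1, 29.1 and 37.8 CPM with LBP against 34.0, 33.4 and 40.3 CPM with vehicle in irradiated cells. The log2 fold change from counts was −0.09 ± 0.11 (95% interval −0.33 to 0.14) in irradiated cells and 0.10 ± 0.13 (95% interval −0.18 to 0.39) in non-irradiated cells. The ratio of CPM to FPKM of TXNRD2, relative to its own mean, ran from 0.89 to 1.17 over the libraries, so the deposited FPKM do not follow its counts closely.

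Each cytosolic gene was then set against its mitochondrial counterpart within a library, as a ratio of FPKM, which does not depend on library size. TXNRD1 over TXNRD2 was 3.24 and 3.55 in vehicle, 8.33 and 5.86 in LBP, 3.38, 3.94 and 3.24 in irradiated vehicle, and 12.0, 8.63 and 5.99 in irradiated LBP. PRDX1 over PRDX3 was 5.34 and 5.77 in vehicle, 6.82 and 6.74 in LBP, 5.50, 5.70 and 5.75 in irradiated vehicle, and 6.82, 6.60 and 6.56 in irradiated LBP. For both pairs all 5 libraries with LBP exceeded all 5 with vehicle. Averaged over the 2 radiation states, the ratio with LBP was 2.235-fold that with vehicle for the reductases and 1.199-fold for PRDX1 over PRDX3. Each had p = 0.0167 in an exact two-sided permutation test over 120 arrangements within radiation state, the smallest p these arrangements allow, and 0.025 when adjusted over the 3 ratios by the Benjamini-Hochberg method. Without the first or the third irradiated vehicle library the adjusted p of each was 0.05, which is not under the threshold, so neither ratio passed there. The first ratio was 2.138-fold higher on CPM, with the same p of 0.0167 in the exact permutation test.

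TXN over TXN2 was 11.6 and 11.3 in vehicle, 16.0 and 14.0 in LBP, 11.4, 13.4 and 12.3 in irradiated vehicle, and 16.2, 12.2 and 12.1 in irradiated LBP. The groups overlapped in irradiated cells. This ratio was 1.188-fold higher with LBP (exact permutation p = 0.1167, 0.1167 adjusted over the 3 ratios) and did not pass. As a share of the summed FPKM of cytosolic and mitochondrial members, the 3 mitochondrial genes held 9.20% and 9.16% in vehicle, 7.13% and 7.72% in LBP, 9.40%, 8.76% and 8.85% in irradiated vehicle, and 6.91%, 7.73% and 7.98% in irradiated LBP. Every library with LBP was lower than every library with vehicle in this share. The summed mitochondrial levels overlapped, at 144 to 170 FPKM with LBP and 151 to 163 FPKM with vehicle, while the summed cytosolic levels did not, at 1735 to 2030 FPKM with LBP and 1517 to 1646 FPKM with vehicle.

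**Figure D3:**
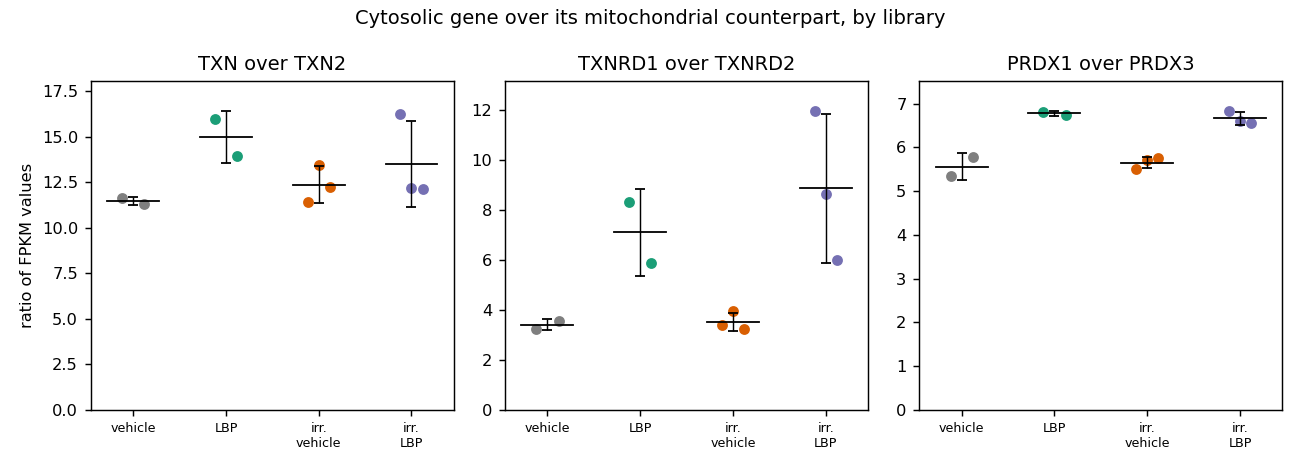
Ratio of the FPKM of a cytosolic gene to that of its mitochondrial counterpart (vertical axes, each from 0) in every library, with the group mean and 1 SD (n = 2 or 3; irr., irradiated). The ratios of the reductases and of PRDX1 to PRDX3 are higher in all 5 libraries with LBP, and those of TXN to TXN2 overlap in irradiated cells.

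Irradiation was compared with no irradiation in vehicle cells and in LBP cells, comparisons that share libraries with those of LBP. At 3 h after 12 Gy no member was called in either. Without LBP, 0 of 10 members passed in edgeR, 0 had an unadjusted p under 0.05 (6.91% of all features) and 0 passed in DESeq2 or limma, against 0.439% of all features called in edgeR. In CPM the irradiated libraries all lay above the others for 0 members (13.8% of all features) and all below for PRDX6 alone (13.9%). The log2 fold changes of the members ran from −0.10 for PRDX6 to 0.11 for SRXN1, with adjusted p from 0.842 to 0.996. TXN differed by 0.09 ± 0.09, TXNRD1 by 0.07 ± 0.16 and SRXN1 by 0.11 ± 0.11. The 95% intervals were −0.11 to 0.28 for TXN, −0.29 to 0.42 for TXNRD1 and −0.13 to 0.35 for SRXN1.

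After LBP, 0 of 10 members were called for 12 Gy in edgeR, DESeq2 or limma, against 0.142% of all features called in edgeR, and 2 had an unadjusted p under 0.05, as did 13.5% of all features. These were PRDX1, at −0.22 ± 0.08 (adjusted p = 0.3), and PRDX3, at −0.16 ± 0.07 (adjusted p = 0.364). All 10 log2 fold changes were below 0, down to that of PRDX1, with a median of −0.15 where the median over all features was 0.00. With other scalings of the counts 9 of the 10 were below 0, and on FPKM 8 of 10. The median was −0.19 without the first non-irradiated LBP library and −0.07 without the second, so its size depended on single libraries. SRXN1, at −0.00 ± 0.11, changed sign in 12 of 21 alternatives. The irradiated libraries lay wholly below the non-irradiated ones in CPM for TXN, PRDX1, PRDX2, PRDX6 and PRDX3, where 14% of all features did. They lay wholly above for 0 members, against 14% of all features.

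The interaction, in which the LBP effect without radiation is subtracted from that with radiation, was called for 0 of 10 members in edgeR, DESeq2 and limma, against 0.0135% of all features in edgeR. Of the 10, TXN alone had an unadjusted p under 0.05, as did 8.2% of all features. The estimates ran from −0.28 for TXN to −0.04 for PRDX6, with −0.16 ± 0.23 for TXNRD1 and −0.12 ± 0.16 for SRXN1. The intervals of TXNRD1 and SRXN1, −0.66 to 0.34 and −0.45 to 0.22, leave both a smaller and a larger LBP effect in irradiated cells possible.

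**Figure D4:**
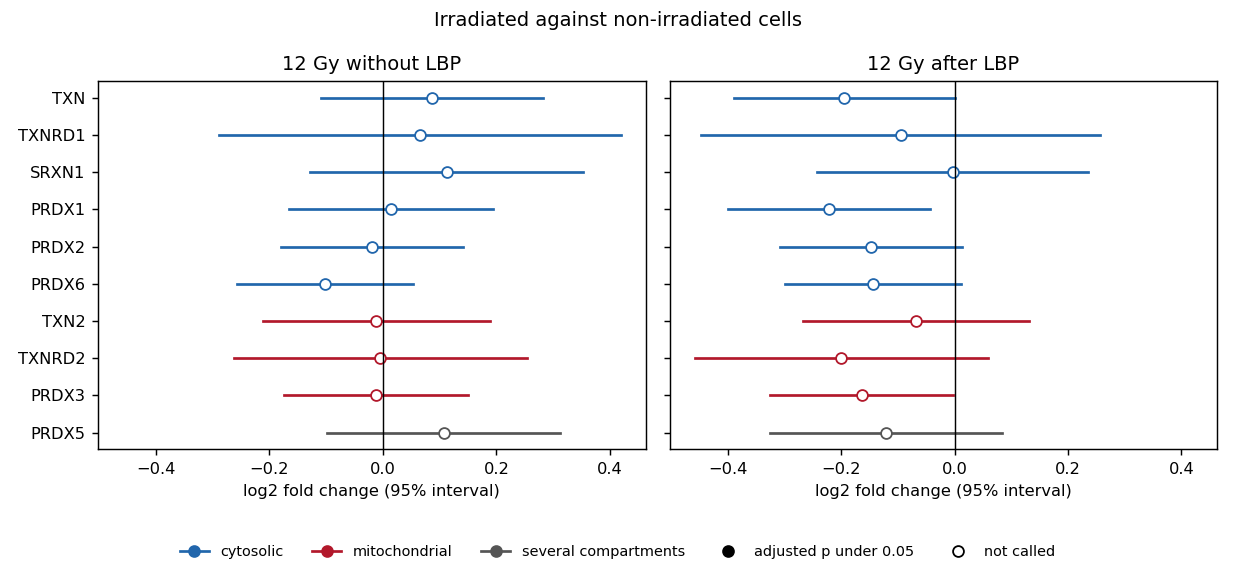
Log2 fold change of each member with 12 Gy against no radiation (horizontal axes, with 95% intervals), without LBP and after LBP (n = 3 against 2 in each). No symbol is filled, since no member passed an adjusted p of 0.05; after LBP the estimates lie between −0.22 and −0.00.

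The patterns most like those of TXNRD1 and SRXN1 were sought among 10263 features by Pearson correlation of log2 CPM over the 10 libraries. For TXNRD1 these were FBXO30 (r = 0.988), SRXN1 (0.987) and EPGN (0.984), and for SRXN1 they were EPGN (0.995), OSGIN1 (0.988) and TXNRD1 (0.987). Within the set searched, the reductase and sulfiredoxin were thus among the 3 features most like each other. That set left out all symbols ending in P and a number, coding genes included. TXN correlated with TXNRD1 at 0.929 and with SRXN1 at 0.909, PRDX2 with PRDX6 at 0.867, and TXNRD1 with PRDX3 at −0.317. All these values describe libraries that share the LBP groups and carry no test.

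Among 31 other genes of the thioredoxin fold and its partners, all tested, 2 were called higher and 1 lower with LBP in irradiated cells, and 1 higher in non-irradiated cells. Over all features 2.79% were called higher and 1.57% lower in irradiated cells, and 0.541% higher in non-irradiated cells. Their median log2 fold changes were −0.05 and 0.05, where the medians over all features were 0.01 in each. TXNIP, which binds and inhibits thioredoxin, was called higher in both. It measured 12.1 and 10.8 FPKM in vehicle, 20.5 and 20.7 in LBP, 9.10, 10.4 and 10.8 in irradiated vehicle, and 21.0, 27.9 and 19.6 in irradiated LBP. All libraries with LBP were higher, with log2 fold changes of 1.18 ± 0.11 (adjusted p = 0.000164) in irradiated and 0.91 ± 0.14 (adjusted p = 0.0087) in non-irradiated cells. The call in non-irradiated cells was lost without any 1 of the 4 non-irradiated libraries (adjusted p = 0.0674 to 0.108) and in limma on log2(FPKM + 1) with and without a filter (0.0563 and 0.136). The inhibitor of thioredoxin and its reductase both had more RNA in the libraries with LBP.

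SESN2, a stress-induced sestrin that has been linked to peroxiredoxin repair, was called higher with LBP in irradiated cells at 0.97 ± 0.19 (adjusted p = 0.0191). The difference between that effect and the one in non-irradiated cells was not called (adjusted p = 0.596). Its levels in irradiated cells were 7.62, 6.52 and 12.0 FPKM against 5.14, 4.21 and 4.18 with vehicle, and in non-irradiated cells they were 5.54 and 4.56 against 5.35 and 4.45 FPKM. TXNDC9, a thioredoxin-domain protein, was called lower in irradiated cells at −0.44 ± 0.08 (adjusted p = 0.014), with 25.1, 28.3 and 23.9 FPKM against 33.4, 34.1 and 38.8. In non-irradiated cells TXNDC9 averaged 31.3 FPKM with LBP and 30.1 with vehicle and was not called. The difference between its 2 effects was not called either. The call of SESN2 was lost without the second or the third irradiated vehicle library (adjusted p = 0.0874 and 0.0734) and in limma on log2(FPKM + 1) with and without a filter (0.0575 and 0.113). That of TXNDC9 was lost without the third irradiated vehicle library (0.0579) and in limma without a filter (0.0526). The other 28 thioredoxin-related genes were not called in either LBP comparison.

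Of 11 other enzymes that remove peroxide or superoxide, 9 were tested, and 1 was called higher and 1 lower with LBP in irradiated cells, beside 2.79% and 1.57% of all features. GPX2, a glutathione peroxidase of epithelia, measured 176 and 169 FPKM in vehicle, 233 and 291 in LBP, 160, 164 and 174 in irradiated vehicle, and 241, 250 and 219 in irradiated LBP. It was called higher in irradiated cells at 0.51 ± 0.08 (adjusted p = 0.00705) and in non-irradiated cells at 0.66 ± 0.10 (adjusted p = 0.0102). GPX1, the broadly expressed glutathione peroxidase, was called lower in irradiated cells at −0.41 ± 0.09 (adjusted p = 0.0346), with 70.1, 68.4 and 78.5 FPKM against 90.7, 96.3 and 105. The 2 glutathione peroxidases moved in opposite directions in irradiated cells. Without any 1 of the irradiated vehicle libraries, or without the first or second irradiated LBP library, GPX1 missed the threshold (adjusted p = 0.0655 to 0.116). It also missed it in limma without a filter (0.0884), as did GPX2 in irradiated cells (0.0513). GPX2 in non-irradiated cells missed it without either vehicle library (0.113 and 0.104) or the second LBP library (0.0804), and in limma on FPKM (0.0516 to 0.125).

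TXNRD1 and TXNRD2 need selenocysteine, and the 7 genes of the machinery that makes and inserts it were all tested. In edgeR 0 of 7 were called in either LBP comparison, with 2 at an unadjusted p under 0.05 in irradiated and 1 in non-irradiated cells, while DESeq2 called 1 and 0. These unadjusted shares, 28.6% and 14.3%, stood beside 21.7% and 13.5% of all features. Of the 14799 features, edgeR called 645 and 119 in either direction, and DESeq2 called 1236 and 381. With 12 Gy, 0 of the 31 thioredoxin-related, 0 of the 9 other peroxide enzymes and 0 of the 7 selenocysteine genes were called in edgeR or DESeq2. Over all 14799 features edgeR called 0.439% without LBP and 0.142% after LBP, and DESeq2 called 123 and 193 features. Unadjusted p under 0.05 were found in 3, 0 and 0 genes of these lists without LBP and in 5, 3 and 0 after LBP. Of all features, 6.91% and 13.5% had one.

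**Figure D5:**
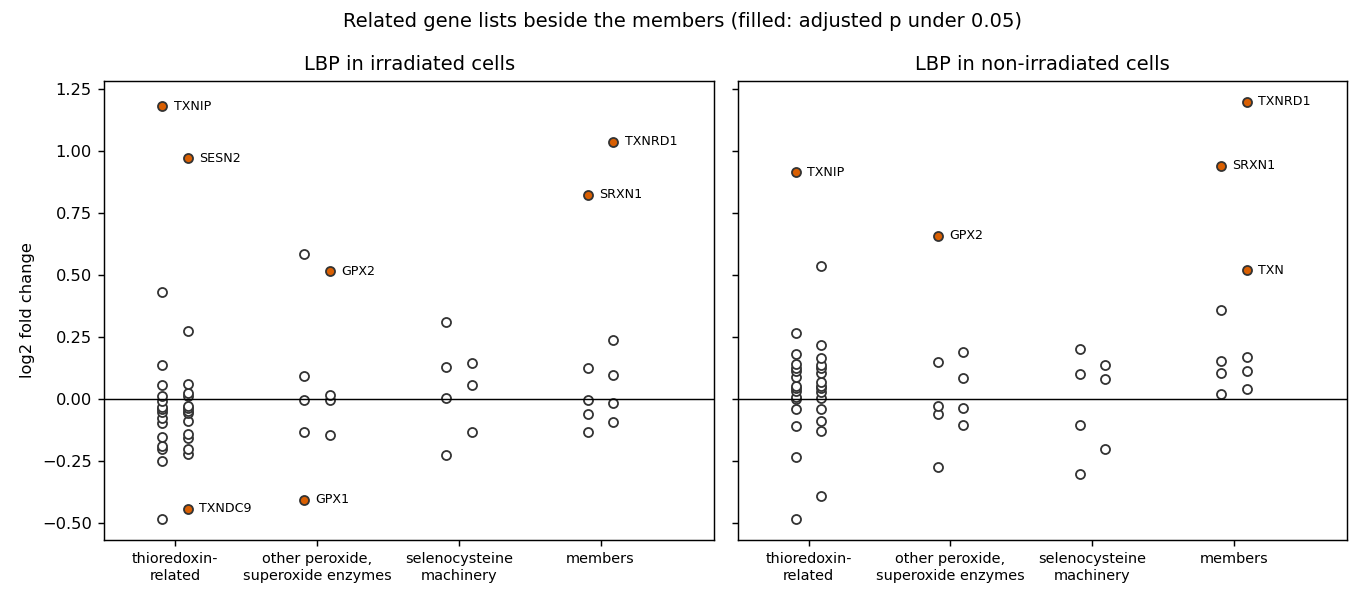
Log2 fold change with LBP of each tested gene in the members and in 3 related lists (vertical axis; points, set side by side to avoid overlap), in irradiated and in non-irradiated cells. Filled points passed an adjusted p of 0.05, and TXNRD1, SRXN1 and TXNIP are among the 4 highest points of each panel.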

How the data were processed

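RNA-seq libraries of 10 HaCaT samples were assigned to 4 groups from their labels. Per the submitters' processing notes, reads were aligned with HISAT2 to GRCh38, without versions. Which tool counted the reads, with which annotation and strand setting, is not given in the sources used here. As to units, the authors deposited whole-number counts per gene and FPKM, values per gene length and library size. Of counts from 1 to 10, 59.7% were even, so counting error is larger than the counts alone imply. No pair of replicates looked like 1 library deposited again (chi-square over degrees of freedom, 10.1 to 34.5).

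Counts were tested with edgeR 4.0.16 (R 4.3.3) by the quasi-likelihood test, with TMM scaling, filterByExpr (minimum count 10) and 1 mean per group over all 10 libraries (6 residual and 6.06 prior degrees of freedom, common biological CV 11.5%). P-values were Benjamini-Hochberg adjusted over all 14799 tested features and called at 0.05. Adjusted p-values are from edgeR except where DESeq2 or limma is named. SE is the log2 fold change divided by the root of F. A group was said not to overlap another where all its TMM-scaled CPM lay on 1 side, and FPKM where FPKM are given. Ratios were tested by an exact two-sided permutation within radiation state. Alternatives used DESeq2 1.42.0, limma 3.58.1 on log2 FPKM with pseudocounts of 1 or 0.1, other scalings and filters, and leaving out each library. The edgeR analysis was tested on simulated data.

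The members and lists were chosen with earlier results of these data known. All 10 members were named. From each of 3 related lists, up to 4 called genes with the smallest p were named per comparison. For TXNRD1 and SRXN1, the 3 most correlated features with a mean log2 CPM of at least 1 were named. Symbols with the form of clone, antisense, pseudogene or unannotated names were left out. This rule went by form alone, so it also left out coding genes whose symbols end in P and a number or contain orf. Positions are from GENCODE v29, and promoter windows from RefSeq on GRCh38.p14. Genes overlapping members are reported for SRXN1, PRDX1 and PRDX2; 1 other result is not reported here.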

Additional observations from a re-analysis of the deposited data

How the results depend on the processing

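Of 21 alternative analyses, or 20 for the interaction, none changed the direction of a called member. TXNRD1 and SRXN1 were called higher with LBP in irradiated cells in all 21, at log2 fold changes of 0.79 to 1.17 and 0.68 to 0.89. The 3 members called in non-irradiated cells fell to 1 with limma on log2(FPKM + 1) without a filter and ranged from 0 to 3 when 1 library at a time was left out, with 0 without the first vehicle library. The 2 members called in irradiated cells stayed 2 under every alternative but DESeq2, which added TXN, and DESeq2 also added PRDX1 in non-irradiated cells. No alternative called a member lower with LBP, or any member for 12 Gy or the interaction. The called genes of the related lists were put through the same alternatives, a choice made after seeing the data, and none changed direction. Whether replicate numbers pair the libraries was not settled: 4 of 13 same-numbered pairs had correlated deviations above 0.1 (range −0.351 to 0.268). In groups of 2 libraries the deviations mirror each other, so the 2 pairs of vehicle with LBP repeat 1 value (0.116). Pairs with different numbers were not set beside them. A fit with the replicate number as a block called 2 and 3 members with LBP in irradiated and non-irradiated cells, as without it. It called 0 members in the other comparisons. With LBP in irradiated cells it gave 497 features higher and 316 lower, against 413 and 232 without the block.

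In irradiated cells alone the log2 ratio difference was 1.28 for the reductases and 0.237 for PRDX1 over PRDX3 (adjusted exact permutation p = 0.15), and in non-irradiated cells alone 1.04 and 0.288 (0.3333). These subsets cannot give a raw p below 0.1 and 0.3333. Leaving out 1 library gave 1.03 to 1.29 and 0.234 to 0.290. Neither ratio passed without the first or the third irradiated vehicle library (adjusted exact permutation p = 0.05).

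Counts over all features moved more. With LBP in irradiated cells 413 were higher and 232 lower, against 694 and 542 with DESeq2 and 114 and 55 with limma without a filter, and 126 to 493 and 50 to 229 when 1 library was left out. In non-irradiated cells 80 were higher and 39 lower, against 193 and 188 with DESeq2, 157 and 121 with a fit to only those 2 groups, and 33 to 100 and 5 to 76 with 1 library left out. For 12 Gy the 5 higher and 60 lower without LBP became 32 and 91 with DESeq2, and the 2 and 19 after LBP became 80 and 113. The interaction gave 1 and 1, and 7 and 13 with DESeq2. With 2 or 3 libraries a group, precision is limited by their number; the least abundant member had at least 944 counts in each.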

Other observations

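The 10 members held 0.245% and 0.261% of all counts in vehicle, 0.334% and 0.339% in LBP, 0.255%, 0.260% and 0.268% in irradiated vehicle, and 0.341%, 0.298% and 0.303% in irradiated LBP libraries. The lowest library with LBP held a larger share than the highest with vehicle. PRDX1, TXN, TXNRD1 and SRXN1 each had between 7586 and 42714 counts in every library.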
